A study of Mus musculus with 4 samples.

Results

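Complex I of the respiratory chain is the large enzyme of the inner mitochondrial membrane that takes electrons from NADH, hands them to ubiquinone and pumps protons. It has a matrix arm, where a flavin and a chain of iron-sulfur clusters carry the electrons, and a membrane arm, where the protons cross. Most of its subunits are encoded in the nucleus, the others in the mitochondrial genome, and muscle holds much of the enzyme because contraction draws heavily on oxidative ATP. The transcripts of 35 nuclear-encoded subunits are described here, chosen by symbol from a list and matched to 35 of the 55573 gene IDs in the count files. The list does not hold every nuclear-encoded subunit.

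The study sequenced RNA from the quadriceps of mice at 7 weeks of age in 4 libraries. The 2 wild-type (WT) libraries came from C57BL/6J mice. The 2 knockout libraries, vdr-/-, came from B6.129S4-Vdrtm1Mbd/J mice, which carry a disrupted gene for the vitamin D receptor in all tissues. All mice were weaned at 21 days and fed regular chow. The labels do not say that the replicates of a group are separate animals, so a p-value here reflects the library-to-library spread alone, and that spread could be technical.

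Total counts lay between 10789025 and 21336982. Counts of Vdr itself were 5 and 0 (WT) and 5 and 1 (vdr-/-), too few to check the labels. Xist, the RNA that silences an X chromosome in females, was counted 1929 and 2778 times in WT but 0 and 3 times in vdr-/-, and Y-linked Ddx3y had 50 and 0 against 1594 and 739. Genotype and sex therefore cannot be told apart in any comparison below. The strain label also differs between the groups, so strain cannot be told apart from genotype either. Ddx3y reads in WT replicate 1 are Y-linked reads in a library with high Xist. The defining muscle transcripts were abundant in all 4 libraries, where 8 of them, among them Acta1, Ckm and Ttn, summed to 73773 to 87688 CPM (counts scaled to a common library size, with edgeR's trimmed mean of M values, TMM).

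No difference between the genotypes was called for any of the 35 subunits. All 35 passed the filter on low counts, and the quasi-likelihood test of edgeR called 0 higher and 0 lower in vdr-/- at a Benjamini-Hochberg adjusted p below 0.05. It called 2.03% of the 13076 genes tested, 1.61% higher and 0.413% lower. DESeq2 also called 0 of the 35. At an unadjusted p below 0.05 there were 2 subunits, 5.71% of the list, against 14% of all genes tested. Log2 fold changes (vdr-/- over WT) ran from -0.46 for Ndufab1 to 0.33 for Ndufb8, with a median of 0.06 beside -0.001 over all genes tested, and 22 of 35 were positive (49.9% over all genes). For 35 of 35 subunits the 95% interval excluded a 2-fold difference, and for 31 it also excluded a 1.5-fold difference. The libraries of the groups did not overlap for 11 subunits, or 31.4%, with 8 higher and 3 lower in vdr-/-, where 44.7% of all genes tested did not overlap, 23% higher and 21.7% lower. The plot of fold changes by structural group shows these intervals.

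**Figure D1:**
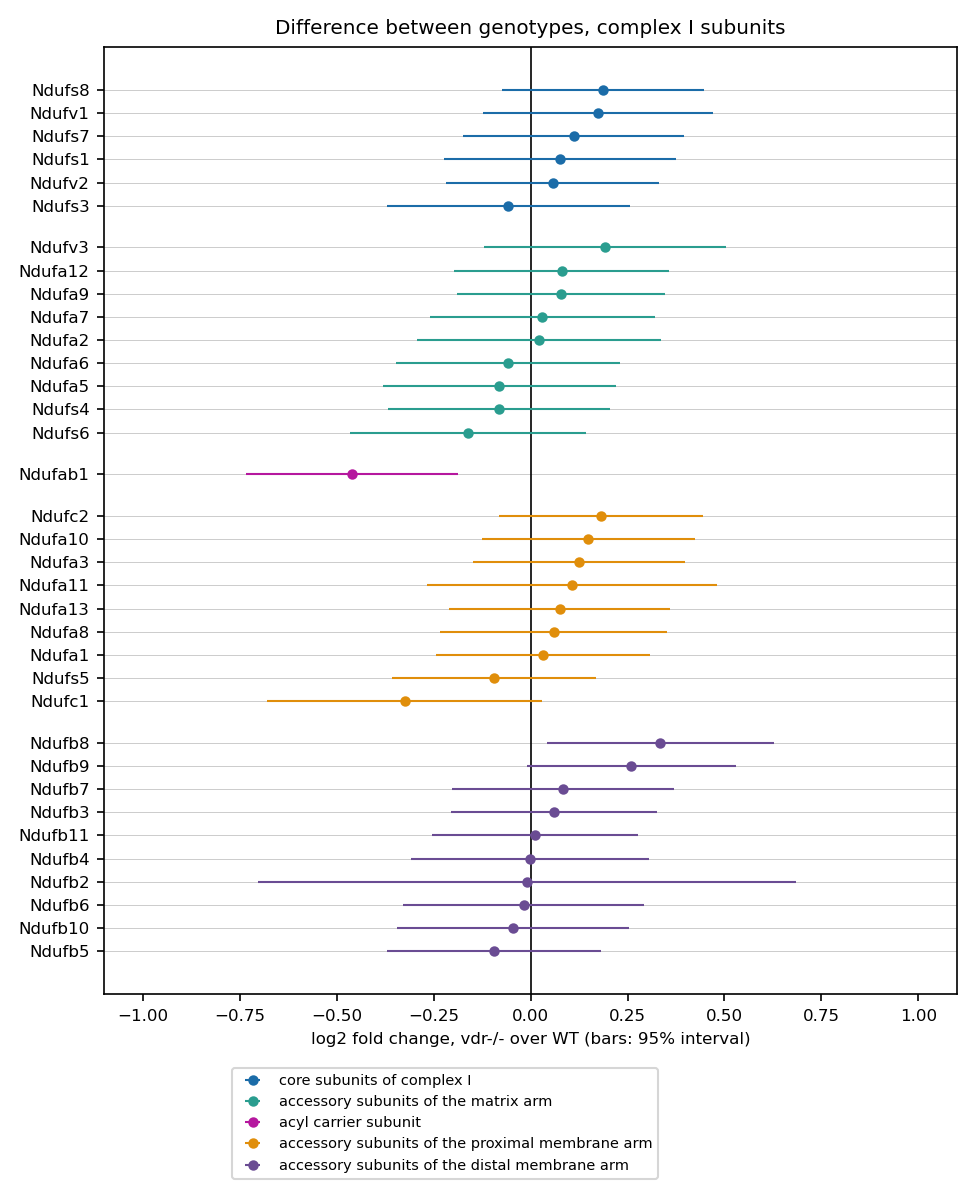
Log2 fold change, vdr-/- over WT, for the 35 subunits (points; bars are 95% intervals from edgeR), coloured by position in the complex. All intervals lie inside -1 to 1, and those of Ndufab1 and Ndufb8 do not include 0, though neither passed the adjusted test.

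The mitochondrial acyl carrier protein, Ndufab1, stood furthest from equality. This protein carries the acyl chains built by mitochondrial fatty acid synthesis, which feed lipoic acid production, and it is also a subunit of complex I, held in the matrix arm by Ndufa6 and at the far end of the membrane arm by Ndufb9. Ndufab1 (ENSMUSG00000030869, GRCm38 chromosome 7, 122085403 to 122101886) stood at 58.6 and 58.0 CPM in WT and at 44.6 and 40.0 CPM in vdr-/-. Both knockout libraries lay below both WT libraries. The group means were 58.3 ± 0.439 and 42.3 ± 3.29 CPM (SD, n = 2 each), 0.726 of the WT level with a 95% interval of 0.601 to 0.878. Its log2 fold change of -0.46 ± 0.12 (SE) had an unadjusted p of 0.00369 and an edgeR adjusted p = 0.103, and so did not pass. The adjusted p lay between 0.0873 and 0.301 over the other settings tried, and the log2 fold change between -0.38 and -0.55. Without WT replicate 1 it was -0.45. Its binding partners Ndufa6 and Ndufb9 stood at -0.06 and 0.26.

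Ndufb8, an accessory subunit at the membrane arm, had the largest positive value. It is widely used as the complex I band on immunoblots of the respiratory chain. Ndufb8 (ENSMUSG00000025204, chromosome 19, 44548572 to 44555440) stood at 105 and 127 CPM in WT and at 143 and 149.6 CPM in vdr-/-, without overlap. The fold was 1.26 (95% interval 1.03 to 1.54), with a log2 fold change of 0.33 ± 0.13, an unadjusted p of 0.0292 and an edgeR adjusted p = 0.281. WT replicate 1 was the lowest of the 4 libraries, and the log2 fold change was 0.21 without it and 0.47 without WT replicate 2.

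To show the regions from which the members' transcripts start, the last 150 bases before the annotated start are given for 4 of them (RefSeq, GRCm38.p6, gene strand, 5′ to 3′). Ndufab1 and Ndufb8 are shown as the ends of the range of fold changes, Ndufa11 as a member with an NRF1 match upstream and Ndufs8 as a core subunit with repeated CCAAT boxes. Capitals mark the motif matches. The windows are chr7:122101849-122101998 (minus strand), chr19:44555443-44555592 (minus), chr17:56717612-56717761 (plus) and chr19:3912775-3912924 (minus), in the order of the lines.
Ndufab1: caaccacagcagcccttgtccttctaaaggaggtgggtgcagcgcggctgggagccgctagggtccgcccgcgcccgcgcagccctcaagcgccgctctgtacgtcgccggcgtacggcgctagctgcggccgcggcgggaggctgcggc
Ndufb8: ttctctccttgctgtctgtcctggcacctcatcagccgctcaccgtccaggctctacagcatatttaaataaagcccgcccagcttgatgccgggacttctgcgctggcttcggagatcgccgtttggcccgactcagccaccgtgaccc
Ndufa11: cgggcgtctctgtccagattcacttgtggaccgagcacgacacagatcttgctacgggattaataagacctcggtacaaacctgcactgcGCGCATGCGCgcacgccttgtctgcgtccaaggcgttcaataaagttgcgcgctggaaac
Ndufs8: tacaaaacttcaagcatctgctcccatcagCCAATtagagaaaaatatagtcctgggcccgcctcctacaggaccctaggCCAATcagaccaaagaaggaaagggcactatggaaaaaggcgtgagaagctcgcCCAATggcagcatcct

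Promoters were found for 32 of the 35 members, and each motif was searched on both strands from 250 bases before to 50 after the start. A member counts if any of its promoters matches, whereas the share over all promoters is per promoter. The 250 upstream bases had a median GC content of 57.8% in the members' promoters and 52.4% in all promoters, and no allowance was made for this. The letters for NRF1 and YY1 were shortened after matches of longer forms had been seen. NRF1 is a factor known to bind promoters of respiratory chain genes, and its letters GCGCATGCG were in 2 of 32 members (6.25%; Ndufa8 and Ndufa11) and in 1.75% of all 32851 promoters. The core CCGGAAG of ETS factors such as GABPA was in 4 of 32 (12.5%; Ndufb6, Ndufb7, Ndufs3 and Ndufs8) and in 8.86% of all promoters. The site AAGGTCA of oestrogen-related receptors was in 3 (9.38%; Ndufb2, Ndufb4 and Ndufs5) and in 4.72%. CCAAT was in 10 (31.3%) against 37.4%, and TATAAA in 4 (12.5%) against 13.6%. A vitamin D receptor direct repeat, GGTCA followed after 4 bases by GGTCA, was in 0 of 32 members and in 0.0457% of all promoters. These exact letters were in only 15 of the 32851 promoters, too rare for a search of 32 members to tell anything about receptor sites. The windows of Ndufab1 and Ndufb8 held none of these letters.

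The letters AAGATGGCG, which match the YY1 site, were in 5 members (15.6%) and in 1.40% of all promoters. All 5 matches lay just after the start, on the gene strand. The ATG inside each is the annotated start codon of that gene, so the match is also the start of the coding sequence. The 5 sites are shown for comparison, with capitals on the motif (Ndufa9 at chr6:126849101-126849125, Ndufc1 at chr3:51408919-51408943, Ndufs4 at chr13:114388045-114388069, Ndufs6 at chr13:73328435-73328459, all minus strand, and Ndufs7 at chr10:80249463-80249487, plus strand).
Ndufa9: attgtgggagAAGATGGCGgccgcc
Ndufc1: cctgcggaacAAGATGGCGccgtcc
Ndufs4: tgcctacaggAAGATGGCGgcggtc
Ndufs6: ggtcaccggcAAGATGGCGgcggtg
Ndufs7: ggccgaggccAAGATGGCGgcgctg
The log2 fold changes of these 5 genes were 0.08, -0.32, -0.08, -0.16 and 0.11 in the order of the lines, on both sides of 0.

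Most of the core subunits bind NADH, the flavin or iron-sulfur clusters. The 6 core subunits had 5 positive values and a median log2 fold change of 0.09. Ndufs8, which holds iron-sulfur clusters near the ubiquinone site, stood at 69.5 and 72.5 CPM in WT and at 81.1 and 80.6 CPM in vdr-/-. Its log2 fold change was 0.19 ± 0.12 (unadjusted p = 0.142, edgeR adjusted p = 0.536). Both knockout libraries were higher by a small margin, and the 95% interval of -0.07 to 0.45 included 0. Ndufv1, which binds NADH and the flavin, stood at 133 and 109.9 CPM in WT and at 140.5 and 133 CPM in vdr-/- (0.17 ± 0.13, edgeR adjusted p = 0.635). WT replicate 2 was the low library there, and without it the value was 0.04, against 0.32 without WT replicate 1. Ndufv2, which holds an iron-sulfur cluster beside the flavin, stood at 156 and 163 CPM in WT and at 175 and 157 CPM in vdr-/- (0.06 ± 0.12, adjusted p = 0.896), with the groups overlapping. Ndufs7, which carries the last cluster before ubiquinone, Ndufs1, the largest core subunit, and Ndufs3 had values of 0.11, 0.08 and -0.06, and their groups overlapped.

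The accessory subunits of the matrix arm gave 5 positive and 4 negative values among 9, with a median of 0.02. Ndufv3, a small subunit next to the flavin site, stood at 112 and 100.2 CPM in WT and at 108 and 134 CPM in vdr-/- (0.19 ± 0.14, edgeR adjusted p = 0.612). Ndufs6, a zinc-binding subunit added late in assembly, stood at 94.0 and 83.0 CPM in WT and at 71.8 and 86.7 CPM in vdr-/- (-0.16 ± 0.14, adjusted p = 0.677). The groups overlapped for both, and in each 1 knockout library lay apart from the other 3 values. With 1 library left out, the log2 fold change of Ndufv3 ran from 0.03 (without knockout replicate 2) to 0.34 (without knockout replicate 1). That of Ndufs6 ran from -0.30 to -0.03 (without knockout replicates 2 and 1 in turn). Ndufa12, another accessory subunit, stood at 147 and 151 CPM against 148 and 168 CPM (0.08 ± 0.12, adjusted p = 0.85). Ndufa9 was the only one of these 9 whose groups did not overlap (11.1%, beside 44.7% of all genes tested). This subunit, which sits close to the ubiquinone site, stood at 116 and 106 CPM against 117 and 117 CPM (0.08 ± 0.12). Ndufs4, whose loss in mice is a model of Leigh syndrome, stood at -0.08, and Ndufa2, Ndufa5, Ndufa6 and Ndufa7 lay between -0.08 and 0.03.

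The subunits of the proximal membrane arm, nearest the matrix arm, had 7 positive values among 9 and a median log2 fold change of 0.08. The groups did not overlap for 5 of the 9, beside 44.7% of all genes tested. Of these, 3 were higher in vdr-/- (Ndufa3, Ndufa10 and Ndufc2) and 2 lower (Ndufc1 and Ndufs5). Ndufc1 stood at 112 and 97.5 CPM in WT and at 70.7 and 96.7 CPM in vdr-/-, so that knockout replicate 1 alone was far below the others (-0.32 ± 0.16, unadjusted p = 0.0689, edgeR adjusted p = 0.414). Its value was -0.12 without that library and -0.56 without knockout replicate 2. Ndufc2, its neighbour in the membrane, stood at 65.7 and 61.3 CPM in WT and at 72.5 and 71.5 CPM in vdr-/- (0.18 ± 0.12, adjusted p = 0.557). Ndufa13, also known as GRIM-19, stood at 231 and 206 CPM in WT against 219.9 and 241 CPM in vdr-/- (0.08 ± 0.13, adjusted p = 0.862). Ndufa11 stood at 71.8 and 49.1 CPM in WT and at 63.5 and 66.7 CPM in vdr-/-. Ndufa8 and Ndufs5, which face the intermembrane space, stood at 0.06 and -0.09.

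The distal membrane arm had 5 positive and 5 negative values among 10. Ndufb9, which binds the acyl carrier protein, stood at 82.9 and 91.5 CPM in WT and at 103 and 106 CPM in vdr-/- (0.26 ± 0.12, unadjusted p = 0.0579, edgeR adjusted p = 0.385). It and Ndufb8 were the members of this group that did not overlap, 20% of the 10, beside 44.7% of all genes tested. Ndufb3, Ndufb4, Ndufb5, Ndufb6, Ndufb7 and Ndufb10 lay between -0.09 and 0.08, and their groups overlapped.

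The X-linked members, Ndufa1 and Ndufb11, were close to equal in libraries that differ in Xist. Ndufa1, a small membrane subunit needed for assembly (chromosome X, 37187588 to 37191163), measured 102 and 99.1 CPM in WT against 96.3 and 109.5 CPM in vdr-/-. Ndufb11 (chromosome X, 20615326 to 20617619), a subunit of the distal arm, measured 121 and 127 CPM in WT against 128 and 121 CPM in vdr-/-. Their log2 fold changes were 0.03 (95% interval -0.24 to 0.31) and 0.01 (-0.25 to 0.28), with edgeR adjusted p = 0.949 and 0.981. The groups overlapped for both. In the plot of levels by library, Ndufb11 has the tightest set of 4 values.

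**Figure D2:**
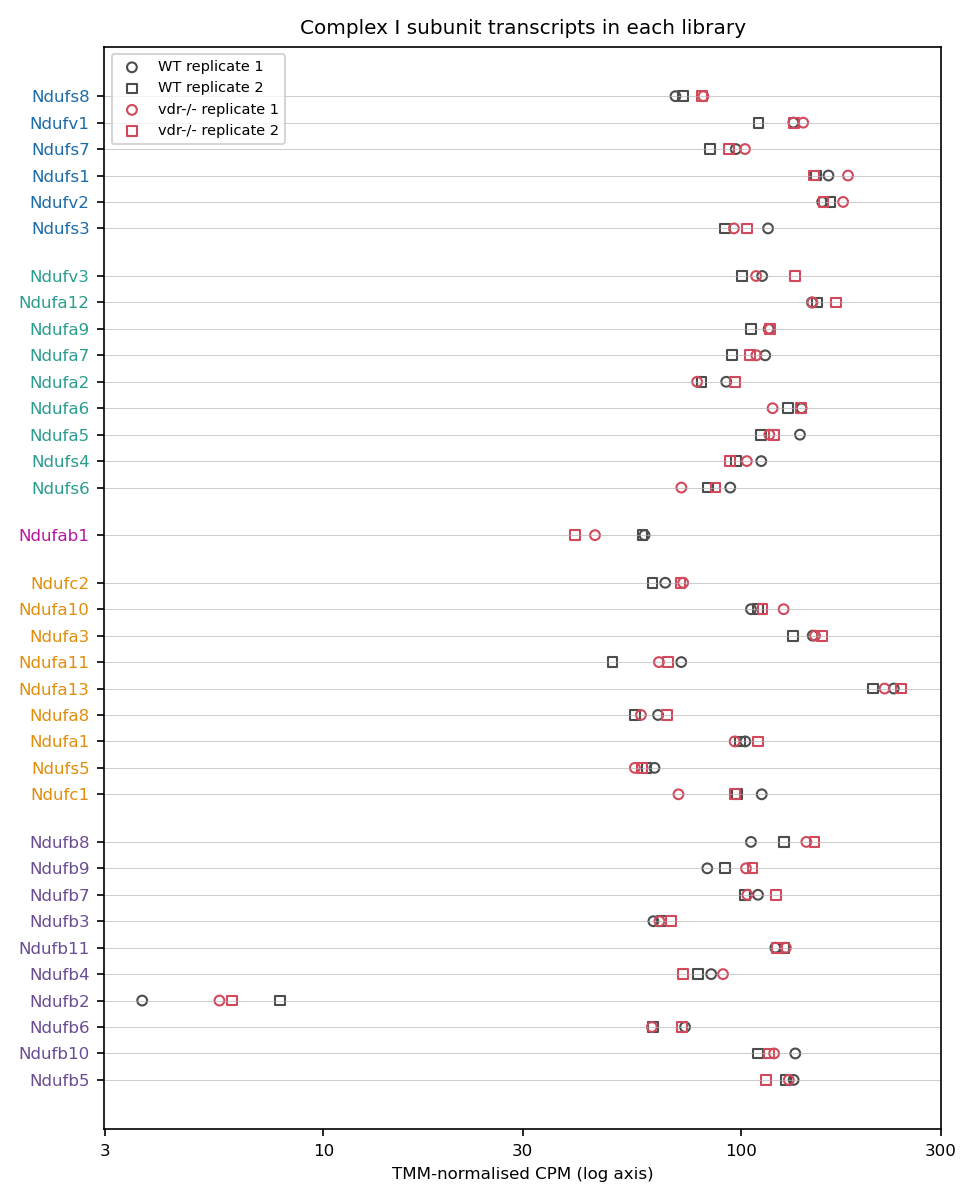
TMM-normalised CPM (log axis) of each subunit in the 4 libraries; grey marks are WT, red marks vdr-/-, circles replicate 1 and squares replicate 2. Label colours give the group: core (blue), matrix arm (green), acyl carrier (magenta), proximal (orange) and distal (violet) membrane arm. Ndufab1 shows both red marks left of the grey ones, and Ndufb2 lies far below the other 34.

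Levels of different genes are given next per kilobase (kb) of the principal GENCODE transcript. The 35 subunits had a median of 99.2 CPM per kb, at the 97.7th percentile of 12154 tested protein-coding genes, and 29 of them lay within 2-fold of that median. Ndufa3 was highest, at 285 CPM per kb, followed by Ndufa1 at 243. These small membrane subunits have transcripts of 515 and 419 bases. Ndufa10, Ndufs4 and Ndufs1 were at 56.1, 59.7 and 60.2 CPM per kb, and their ranges over the libraries overlapped. Only Ndufab1 (14.5) and Ndufb2 (1.33) lay below them. Their principal transcripts are annotated at 3479 and 4371 bases, against 2661 for Ndufs1. Before scaling by length Ndufab1 had a mean of 50.3 CPM, near Ndufs5 at 58.7 CPM with a transcript of 680 bases. Ndufab1 had rank 34 of the 35 both before and after scaling. Its distance below the others per kb depends on its annotated length, but its place does not. All its exons together are longer still, at 6883 bases, and which transcript the reads came from was not tested. With the length of all annotated exons in place of the transcript the lowest 2 were the same, Ndufa1 took rank 1 and Ndufa3 rank 4, and Ndufb7 moved from rank 7 to rank 32. The order in between therefore rests on the length used.

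**Figure D3:**
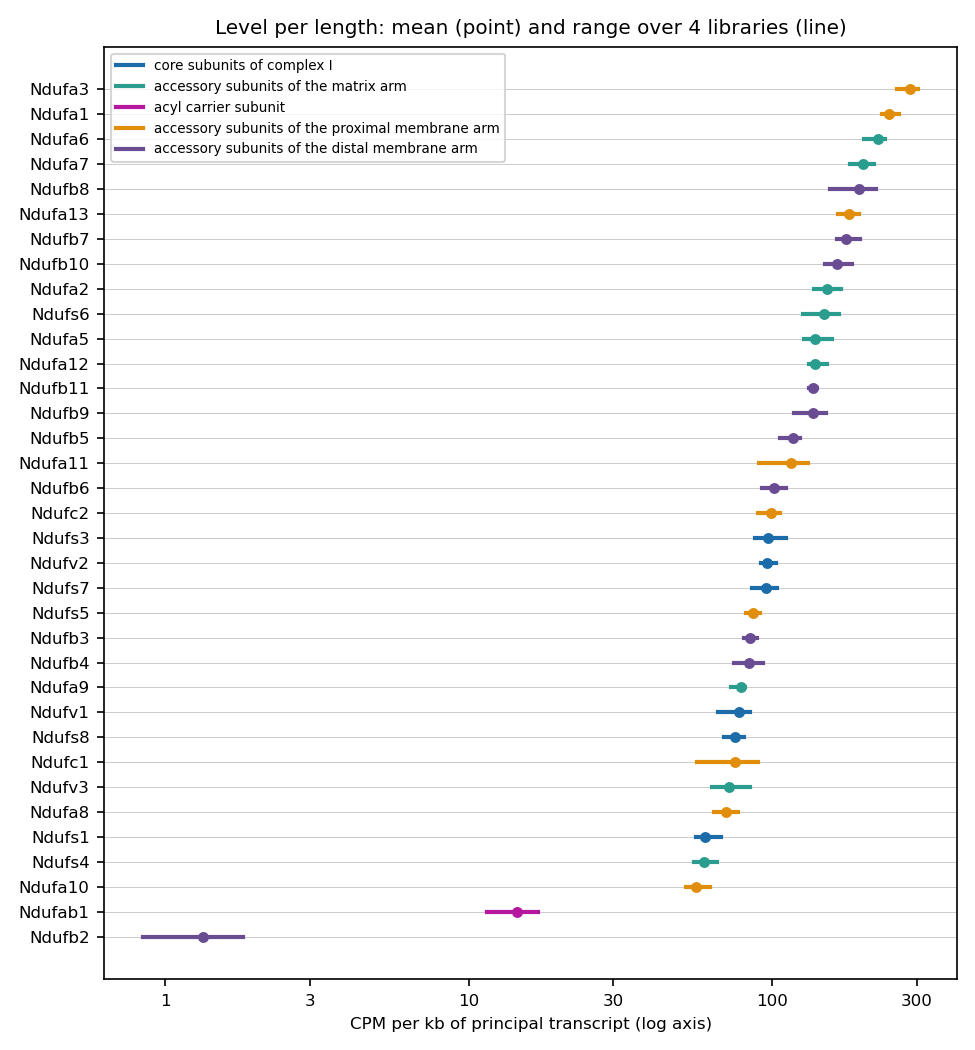
Level of each subunit as CPM per kb of its principal transcript (log axis), with the mean over the 4 libraries as a point and the range as a line. Of the 35, 33 lie above 50 CPM per kb. Ndufab1 and Ndufb2 are lowest at 14.5 and 1.33, with annotated transcripts of 3479 and 4371 bases. The distance of Ndufab1 below the others depends on its annotated length, but its rank of 34 does not.

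Some members share bases with other annotated genes. Ndufb2 had 39, 101, 119 and 71 counts (WT replicates 1 and 2, then vdr-/- replicates 1 and 2), which is 3.69 and 7.87 CPM in WT against 5.65 and 6.04 CPM in vdr-/-. Of its exon bases, 145 are also annotated to Gm42420 on the same strand, which had 0 counts in all 4 libraries. Ndufb8 and Ndufb9 share 134 and 201 exon bases with Gm20538 and Gm49356, also at 0 counts. Near-identical processed pseudogenes (at least 95% identity over at least 200 bases) exist for 8 of the 35, namely Ndufa12, Ndufab1, Ndufb3, Ndufb4, Ndufb11, Ndufs3, Ndufs5 and Ndufs6. Reads that map equally well to a subunit and its copy may be lost from both counts. Few counts of a copy therefore do not show how many reads were lost. Ndufab1 has 2 such copies, Gm4459 (99.8% identical over 468 bases) and Ndufab1-ps (99.4% over 469 bases), which had 17 and 2 counts over the 4 libraries against 2776 for Ndufab1. The copy with the most counts was BC002163, with 31 over the 4 libraries, 0.948% of those of Ndufs5. The labelled kit does not mark strand, so reads from a gene and from a gene on the opposite strand over the same exon cannot be told apart. This touches 13 of the 35 subunits, most of all Ndufb6, with 39.0% of its exon bases under Smim27, and Ndufa13, with a smaller share under Tssk6. The part of shared exons and copies in the levels of these genes was not tested.

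The median absolute log2 difference over the 35 subunits was 0.16 between the WT libraries, 0.13 between the knockout libraries and 0.08 between the genotype means, each of which averages 2 libraries. Across the 35 subunits the median difference between the WT libraries was -0.11 on the log2 scale (replicate 2 minus replicate 1), with 26 of 35 lower in replicate 2. Between the knockout libraries it was 0.06, with 21 of 35 higher in replicate 2, and between the genotype means it was also 0.06, with 23 of 35 higher in vdr-/-. WT replicate 2 was the low library, where 8 of the 35 subunits stood above their own mean, against 24 in WT replicate 1 and 19 and 22 in the knockout libraries. Mitochondrial genes, ribosomal RNA and Rn7sk held 48.2 to 51.2% of all counts in each library. Of the remaining counts the 35 subunits held 0.720 and 0.695% in WT and 0.739 and 0.757% in vdr-/-, without overlap. Of all counts they held 0.365 and 0.340% against 0.360 and 0.392%, with overlap. These shares were not tested. The genotype difference exceeded both replicate differences for 6 of 35 subunits (17.1%), and for 34.9% of the 6282 genes with a mean of at least 10 CPM. The median log2 fold change of the list followed these libraries. It was 0.12 without WT replicate 1, with 27 of 35 positive, and 0.01 without WT replicate 2 and also without knockout replicate 2. Between 18 and 27 were positive when a library was left out, and 0 subunits were called in each case.

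**Figure D4:**
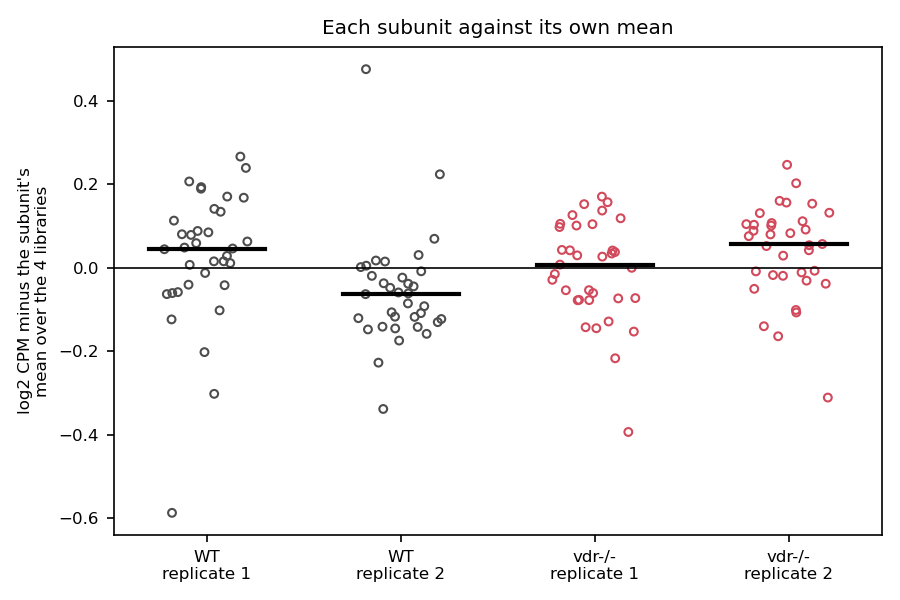
Log2 CPM of each of the 35 subunits minus its own mean over the 4 libraries; each mark is a subunit and each bar the library median. The medians are 0.05 and -0.06 in the WT libraries and 0.01 and 0.06 in the vdr-/- libraries, so the WT replicates lie on either side of the knockout replicate 1 median.

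The subunits of complex I that are made inside mitochondria stood lower in vdr-/-, without passing the test. All 6 that were tested had a negative log2 fold change, with a median of -0.23, and 5 of 6 did not overlap between the groups (21.7% of all genes lay below WT in this way). mt-Nd6, the only protein encoded on the light strand of the mitochondrial genome, stood at 79.9 and 74.6 CPM in WT and at 55.9 and 54.7 CPM in vdr-/- (-0.48 ± 0.12, unadjusted p = 0.00228, edgeR adjusted p = 0.0789). mt-Nd2, part of the proton-pumping membrane arm, stood at 906 and 1029.7 CPM in WT and at 799 and 738 CPM in vdr-/- (-0.33 ± 0.13, adjusted p = 0.293). mt-Nd1, mt-Nd4, mt-Nd5 and mt-Nd3 had values of -0.16, -0.24, -0.22 and -0.13, and mt-Nd4l, with 1 count in all, was not tested. Apart from mt-Nd6 these genes lie on the same long precursor RNAs, so they are not separate observations. mt-Nd6 lies opposite that precursor, and since the kit does not mark strand its value may hold reads of both strands. For each count of the 35 nuclear subunits the libraries held 1.54 and 1.71 counts of mitochondrially encoded subunits in WT and 1.51 and 1.22 in vdr-/-. Both knockout libraries were lower, knockout replicate 1 by little, and no test was made of this ratio.

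**Figure D5:**
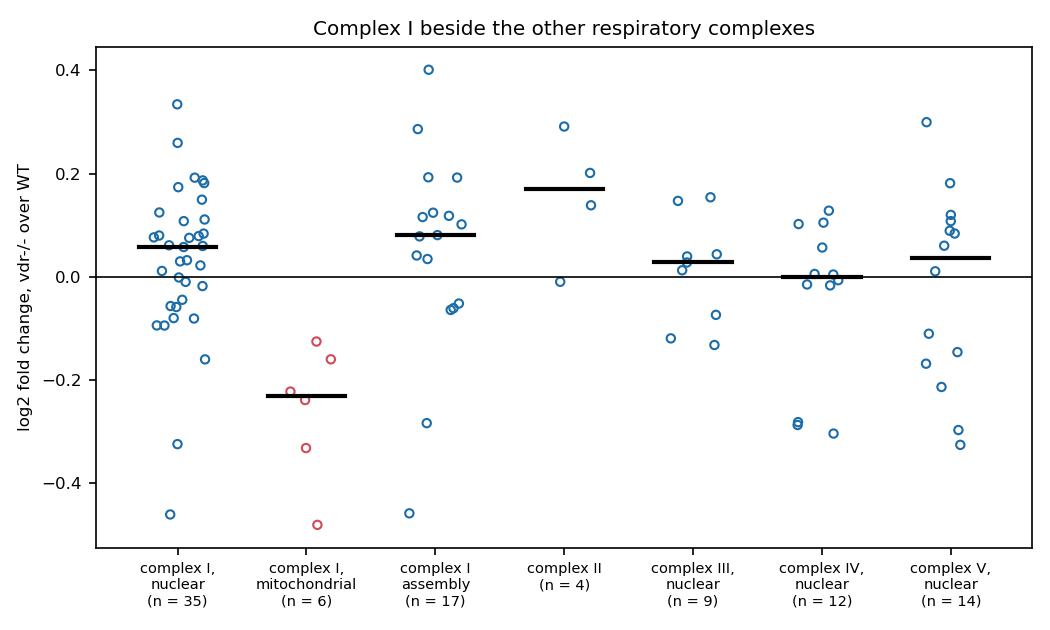
Log2 fold change, vdr-/- over WT, of complex I subunits encoded in the nucleus and in mitochondria, of assembly factors and of complexes II to V; each mark is a gene and each bar the list median. The mitochondrially encoded subunits lie between -0.48 and -0.13, and the 35 nuclear subunits lie on both sides of 0; none of the genes shown passed the adjusted test.

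The factors that build complex I were not called either. Of 17 assembly factors tested, 0 were called, 12 were positive and the median was 0.08. Foxred1, an oxidoreductase-like assembly factor, stood at 12.4 and 14.5 CPM in WT and at 17.3 and 18.3 CPM in vdr-/- (0.40 ± 0.15, edgeR adjusted p = 0.26), and Ndufaf5, which modifies the core subunit Ndufs7, had 0.29 ± 0.13 (adjusted p = 0.362). The nuclear subunits of complexes II to V gave 0 called of 39, 23 positive and a median of 0.01. The medians of complexes II, III, IV and V were 0.17, 0.03, -0.001 and 0.04 over 4, 9, 12 and 14 genes. In complex II, Sdhd, a membrane anchor, had 0.29 ± 0.12 (adjusted p = 0.294) and Sdha, the flavoprotein, 0.20 ± 0.14 (adjusted p = 0.579). In complex III, Cyc1 and Uqcrc1 had 0.15 each. In complex IV, Cox5a and the muscle form Cox6a2 had -0.30 and -0.29, without overlap between the groups, and in complex V, Atp5l and Atp5j had 0.30 and -0.33. Nuclear regulators of respiratory chain genes, among them Ppargc1a, Esrra and Tfam, gave 0 called of 10 and a median of -0.01. The smallest p-values there were those of Polrmt, the mitochondrial RNA polymerase, at 14.5 and 13.8 CPM in WT and at 12.8 and 10.7 CPM in vdr-/- (-0.26 ± 0.16, adjusted p = 0.532), and of Gabpa (-0.16 ± 0.14, adjusted p = 0.677).

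Markers of fat and red blood cells were called higher in the same knockout libraries. Of all genes tested, 1.61% were called higher and 0.413% lower in vdr-/-. Fat cell markers were called higher for 8 of 10, with a median of 1.78 and a summed level of 979 and 1181 CPM in WT against 4190.3 and 3692 CPM in vdr-/-. Red blood cell markers were called higher for 2 of 5 (median 1.04, sums of 242 and 265 against 548 and 388 CPM). No member was called of 8 macrophage (median 0.22), 6 tendon (-0.50), 5 endothelial (-0.13), 5 brown fat (0.004) and 8 slow fibre markers (0.45). The brown fat median is the value of Cox8b, which is also in the complex IV list. Ucp1 stood at 1.51 and 34.0 CPM in WT replicates 1 and 2 and at 12.1 and 14.6 CPM in vdr-/-. Cidea stood at 3.31 and 15.6 CPM in WT and at 34.9 and 32.1 CPM in vdr-/-. Dio2 and Ppara were also higher in WT replicate 2 than in WT replicate 1, and Cox8b was lower. The slow fibre list also holds Myh2, the myosin of fast oxidative fibres, which made up most of its sum. That sum ranged from 346 to 407 CPM in WT and from 241 to 530.0 CPM in vdr-/-, so the groups overlapped. The 8 muscle markers had a median of -0.14 and 0 called, with sums of 87688 and 81065 CPM in WT against 73773 and 76406 CPM in vdr-/-. Of the 5 sex-linked genes 1 was called, Xist. In bulk tissue, fewer cells of a type and less RNA per cell cannot be told apart, and the part of these cell types in the complex I values was not tested.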

How the data were processed

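RNA was extracted from frozen quadriceps, and libraries were made with a TruSeq kit, per the labels' protocols. Trimmomatic, STAR and DESeq2 were used with build GRCm38 (mm10), per the submitters' processing notes; no version of these tools, and no annotation, is given in the sources used here. The deposited files hold raw counts per Ensembl gene, 1 column per library, with total counts of 10789025, 13031553, 21336982 and 11206474. Symbols and coordinates came from GENCODE mouse release M21 (55480 of 55573 IDs matched). The labelled kit does not mark strand, and the strand setting of the counting is not given. A count was seen in 119 of 456 genes that lie entirely below opposite-strand exons and in 1 of 711 below same-strand exons. Same-strand overlaps were thus discarded and opposite-strand overlaps were not, as in counting by strand. How far the counts at opposite-strand overlaps are antisense cannot be told apart.

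Genes were kept by filterByExpr (minimum count 10, minimum total 15), scaled by TMM and compared with the quasi-likelihood F test of edgeR 4.0.16 (robust, in R 4.3.3), fitted to genotype alone, with p adjusted over all 13076 genes by the Benjamini-Hochberg method. Standard errors and 95% intervals were derived from the F statistic. The median standard error was 0.13 over the 35 subunits and 0.19 over all genes. DESeq2 1.42.0, other scalings, other filters, a replicate block and each library left out were alternatives. The older quasi-likelihood method was added after seeing the data. The letters searched for NRF1 and YY1 were shortened after matches of longer forms had been seen. Scripts were tested on simulated counts. The members and gene lists were chosen with earlier results of these data known. Of 169 symbols, 167 matched. All 35 subunits are named, and of each other respiratory list the 2 with the smallest p. In full are given, per structural group, the 2 with the smallest p, the one with the highest mean CPM (not scaled by length), and the X-linked members; other members with values were singled out after seeing them.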

Additional observations from a re-analysis of the deposited data

How the results depend on the processing

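Under all 12 alternatives 0 subunits were called higher and 0 lower, and 16 of the 35 kept the sign of their log2 fold change. The median over the 35 stayed between 0.05 and 0.07 with all libraries in, and ran from 0.0075 to 0.12 when 1 library was left out, with the highest value without WT replicate 1. The lone library left in a group is then assumed to vary like the others. With no filter on low counts 355 genes were called higher and 121 lower over all genes, and the count of lower genes ran from 39 to 90 with 1 library left out, the highest again without WT replicate 1. Of the subunits that changed sign, none was called under any setting. With 1 library left out the log2 fold change ran from -0.060 to 0.12 for Ndufa1, -0.14 to 0.41 for Ndufa11, -0.012 to 0.17 for Ndufa12, -0.0075 to 0.16 for Ndufa13, -0.13 to 0.16 for Ndufa2, -0.23 to 0.083 for Ndufa5, -0.17 to 0.048 for Ndufa6 and -0.098 to 0.17 for Ndufa7. It ran from -0.042 to 0.16 for Ndufa8, -0.19 to 0.11 for Ndufb10, -0.030 to 0.050 for Ndufb11, -0.43 to 0.65 for Ndufb2, -0.17 to 0.15 for Ndufb4, -0.14 to 0.12 for Ndufb6 and -0.031 to 0.19 for Ndufb7. It ran from -0.071 to 0.21 for Ndufs1, -0.22 to 0.12 for Ndufs3, -0.18 to 0.026 for Ndufs4 and -0.027 to 0.14 for Ndufv2. Ndufb2 was also at 0.0052 with DESeq2 and 0.0818 with the replicate block, and Ndufb4 at 0.0105 with no filter; the cause was not tested. The labels do not say what a replicate number marks. Libraries with the same number had deviations correlated at 0.05 over 6282 genes, and a shared batch was not tested. With the replicate block 276 genes were called higher and 77 lower over all genes, and 0 subunits. Ndufb2, with 39 to 119 counts per library, has the least depth, and its interval of -0.70 to 0.68 is the widest.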
